A study of Mus musculus with 10 samples.

Results

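The prefrontal cortex (PFC) of 5 wild-type (WT) mice was described across 22000 protein-coding genes, from the most to the least abundant and from the most to the least variable between animals. These 5 libraries are those labelled Zbtb16 WT among the 10 libraries of a study of mice that lack *Zbtb16*, which encodes the zinc-finger transcription factor PLZF. They were taken by that label alone, and no genotype was compared with another. The mice were male, 7 weeks old and came from the B6.C3-Zbtb16lu/J line, and no treatment is given for them. Each library holds the polyadenylated RNA of the PFC of 1 mouse.

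The PFC is a neocortical area in which glutamatergic pyramidal neurons, arranged in layers, are joined by GABAergic interneurons, astrocytes, oligodendrocytes and their precursors, microglia and the cells of blood vessels. Its RNA is thus a mixture, and the most abundant nuclear-encoded messages are those of synapses, axonal transport, ion pumping, energy supply and myelin. Some neuronal genes, the immediate early genes, are switched on within minutes by neuronal activity and decay quickly, while genes of ribosomes and respiration are used by every cell at a steady level.

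Counts per library lay between 30220122 and 47343536, with mouse 2 the deepest. Levels are counts scaled to 1000000 counts per library (CPM), and 3 counts, taken as the floor of detection, came to 0.0634 to 0.0993 CPM. Between 16068 and 16237 genes had a count in a mouse, and 15220 genes had one in all 5 mice. No library was a repeat of another, the chi-square per degree of freedom, which also grows with depth, being 6.34 for the closest pair (mice 3 and 4) and 20.9 for the farthest (mice 2 and 3). The RNA integrity number (RIN) was 9.8, 9.7, 8.2, 8.2 and 9.5 in mice 1 to 5.

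Markers fixed for the tissue went with its label. All 10 genes of forebrain identity were at 5 CPM or more, among them *Mef2c* at 838 to 890 CPM and *Tbr1* at 162 to 177 CPM, while none of 15 genes of mid- and hindbrain identity was, the highest being *Th* at a mean of 2.59 CPM. The Y-linked *Ddx3y*, *Eif2s3y*, *Kdm5d* and *Uty* were all above 5 CPM in every mouse, as the label male implies. *Zbtb16* itself was at 83.7, 89.1, 73.6, 70.5 and 78.6 CPM in mice 1 to 5, a mean of 79.1 CPM ± 7.49 (SD, n = 5), which placed it 3174th of all genes. Its highest mouse was 1.26 times its lowest.

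Abundance was concentrated in a small part of the genes. The 100 most abundant genes took 14.5% of all counts and the 1000 most abundant took 47.7%. A set of 1117 genes held 50% of the counts and 5912 genes held 90%. Among the genes with counts no single gene dominated, since the first of the ranking took 0.397% and the first 10 together 3.12%. The 13 protein genes of the mitochondrial genome were listed at 0, so these shares and ranks are over nuclear genes only. By mean CPM, 81 genes stood at 1000 or more, 2412 between 100 and 1000, 7412 between 10 and 100 and 1309 between 5 and 10. Lower down, 1989 genes lay between 1 and 5 CPM, 1997 between 0.1 and 1 CPM and 2045 below 0.1 CPM, and 4755 genes had no count in any mouse. The 11214 genes at a mean of 5 CPM or more made up 50.97% of the table and 99.4% of the counts, with a median of 39.0 CPM.

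**Figure D1:**
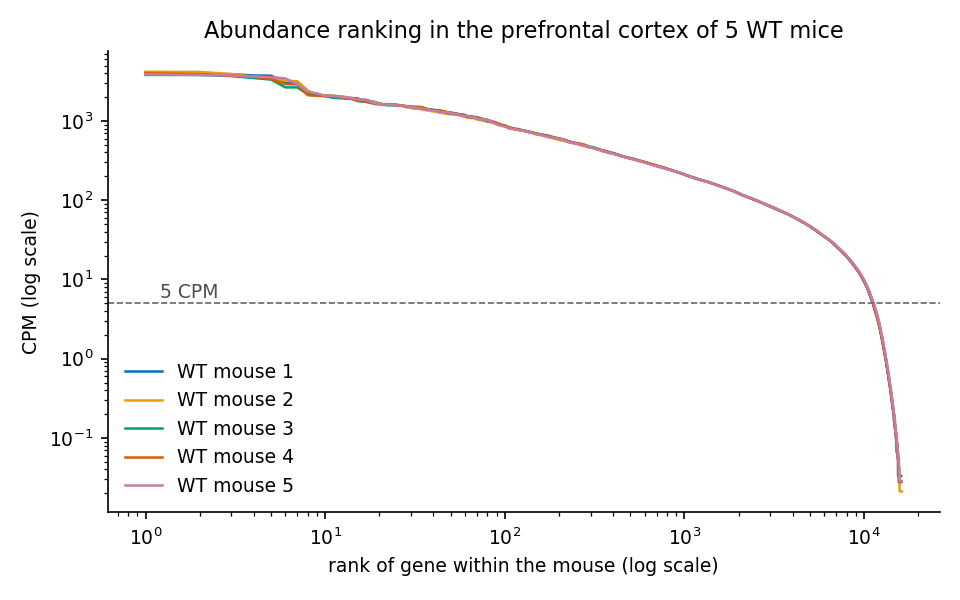
CPM of each gene against its rank within the mouse, both on log scales, with 1 line per WT mouse and a dashed line at 5 CPM. The 5 lines lie on each other over most of the ranking, and all cross 5 CPM between ranks 11180 and 11294.

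The ranking by CPM was led by *Kif5a*, a motor protein that carries cargo along axonal microtubules, at chr10:127225696-127263348 on the minus strand (GRCm38). Its levels were 4108, 4176, 3799, 3987 and 3804 CPM in mice 1 to 5, and its highest mouse was 1.10 times its lowest. Also near the top were *Camk2a*, the calmodulin-dependent kinase of the postsynaptic density, at 3747 CPM ± 159 (SD, n = 5) and *Snap25*, a SNARE protein of vesicle fusion, at 3666 CPM ± 170 (SD, n = 5). *Slc1a2*, the astrocytic glutamate transporter, was at 3555 CPM ± 197 (SD, n = 5). *Mbp*, a main protein of myelin, stood at 3050 CPM ± 295 (SD, n = 5). The means of *Camk2a*, *Snap25* and *Slc1a2* follow each other at less than 1 SD, so their order is within the spread between mice.

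The rest of the first 30 genes fall into a few functions. Neuronal signalling and release were represented by *Camk2n1*, an inhibitor of CaMKII, at 2954 CPM, *Syt1*, the calcium sensor of vesicle release, at 2092 CPM, and *Nrgn*, a calmodulin-binding postsynaptic protein, at 1833 CPM. *Slc17a7*, which loads glutamate into vesicles, stood at 1562 CPM. *Atp1b1*, the beta subunit of the sodium pump, stood at 1866 CPM. Glia contributed *Sparcl1*, a secreted matrix protein made by astrocytes, at 1997 CPM and *Glul*, the astrocytic glutamine synthetase, at 1736 CPM. *App*, the amyloid precursor protein, stood at 1925 CPM, *Cpe*, which trims neuropeptide precursors, at 2115 CPM and *Gapdh*, a glycolytic enzyme, at 1584 CPM. The lowest value that any of the first 30 genes had in any mouse was 1378 CPM, and the widest ratio between mice among them was 1.30.

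Long transcripts yield more fragments, so levels of different genes were also set per kilobase of exon. On that scale the first place went to *Nrgn* at 1262 CPM per kb, and high levels were also found for *Calm2* (1124), a calmodulin gene, *Cpe* (810) and *Sparcl1* (680). *Kif5a* fell to the 11th place with 569 CPM per kb, *Slc1a2* to the 65th with 271 and *App* to the 179th with 148. Of the 100 genes highest by CPM, 60 were among the 100 highest per kb, and 19 of the first 30. The median exon length was 5170 bases in the 100 highest by CPM, 3049 bases in the 100 highest per kb and 4912 bases over all genes at 5 CPM or more. Short genes that moved up the order were *Sepw1*, a small selenoprotein, 334th by CPM and 9th per kb, *Cox8a*, a subunit of cytochrome oxidase, 630th and 20th, and *Rplp1*, a ribosomal protein, 901st and 22nd. These 3 genes were chosen after their values were seen.

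Function lists chosen for cortex show where the counts went. Of 25 genes of synaptic vesicles and release, all were at 5 CPM or more, 8 stood among the 100 most abundant, and together they took 2.21% of all counts. A list of 28 cytoskeletal genes took 2.16%, again with 8 members in the first 100. The sodium pump and proton pump list, with 12 genes, took 1.26% and had 7 members in the first 100, while 20 genes of the postsynaptic scaffold took 1.31%. All 16 glycolytic genes together took 1.02%, 84 ribosomal protein genes 1.02% and 86 nuclear genes of the respiratory chain 0.986%. Per kb, the median level was 132 CPM in the vesicle list, 135 in the cytoskeletal list, 125 in the pump list and 120 in the glycolytic list, against 8.17 CPM per kb over all genes at 5 CPM or more.

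The markers of every resident cell class were present. In bulk tissue fewer cells of a type and less RNA per cell cannot be told apart, and the levels below describe both together. Of 10 excitatory neuron genes, all passed 5 CPM, with a median of 79.7 CPM per kb. All 15 astrocyte genes passed with 53.6 CPM per kb, and all 16 oligodendrocyte genes with 31.6 CPM per kb. Microglial genes had a median of 14.7 CPM per kb, interneuron genes 8.08, endothelial genes 7.18, and genes of mural cells 2.81, each over the members at 5 CPM or more. These are 12 of 14 microglial, 18 of 20 interneuron, 15 of 15 endothelial and 10 of 13 mural genes.

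Among layer markers, *Lamp5* of the upper layers stood at a mean of 304 CPM, *Etv1* and *Pcp4* of layer 5 at 115 and 105 CPM, and *Tbr1* of layer 6 at 172 CPM. Among interneuron genes, *Gad1*, the enzyme that makes GABA, stood at 333 to 391 CPM, and the peptide *Sst* at 148 to 176 CPM. *Pvalb*, the calcium buffer of fast-spiking cells, was at 57.3, 63.7, 37.5, 48.05 and 57.1 CPM, lowest in mouse 3 and 1.70 times higher in mouse 2. The median CV of the interneuron genes was 7.51%, against 6.33% over all genes at 5 CPM or more.

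The sums of these lists differed between mice by small amounts. The coefficient of variation (CV, the SD divided by the mean over the 5 mice) of the summed CPM was 2.51% for excitatory neurons, 2.80% for microglia, 3.59% for interneurons, 4.07% for oligodendrocyte precursors and 4.504% for astrocytes. Oligodendrocytes reached 9.16%, with sums of 7948, 8361, 6895, 7537 and 8759 CPM in mice 1 to 5. Mouse 3 was the lowest for 13 of the 16 oligodendrocyte genes and for 11 of the 15 astrocyte genes, while mouse 5 was the highest for 8 and 9 of them. Over all genes at 5 CPM or more, mouse 3 was the lowest for 22.6% and mouse 5 the highest for 20.02%. The sums of oligodendrocyte precursors and microglia in mouse 3 were near their means, at 683 and 408 CPM. By gene, mouse 3 was the lowest for 2 of the 10 oligodendrocyte precursor genes and 6 of the 12 microglial genes at 5 CPM or more. Mouse 3 was the highest for 7 of the 11 layer 6 genes at 5 CPM or more, against 19.6% of all genes. It was also the highest for 5 of the 12 layer 5 genes. Of the 10 upper-layer genes it was the highest for 2 and the lowest for 6.

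**Figure D2:**
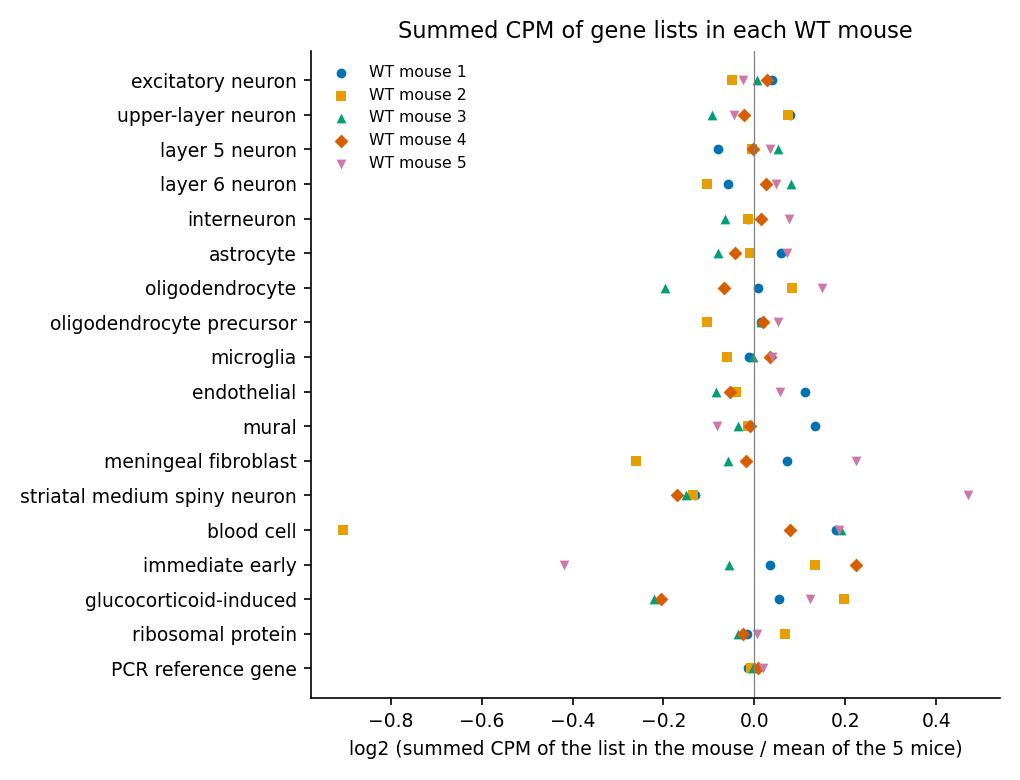
Summed CPM of 18 gene lists in each WT mouse, as log2 of the ratio to the mean of the 5 mice, with 1 marker per mouse. Most lists lie within 0.2 of 0 on this log2 scale, while the striatal list stands apart in mouse 5, the blood list in mouse 2 and the immediate early list in mouse 5.

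Receptor genes of fast transmission were nearly all present for glutamate and in part for GABA. Of 16 AMPA, NMDA and kainate receptor genes, 15 were at 5 CPM or more, with a median CV of 6.52%, close to the 6.33% of all genes. Per kb, the obligatory NMDA subunit *Grin1* was at 61.4 CPM, the AMPA subunit *Gria2* at 48.4 CPM and *Grin2b* at 23.7 CPM. Of 19 GABA-A receptor genes, 12 were at 5 CPM or more, with a median of 25.4 CPM per kb and a median CV of 6.72%. *Gabra2*, an alpha subunit of these receptors, stood out among them, at 54.9, 104, 97.4, 61.2 and 54.6 CPM. Its mice fell into a higher pair (2 and 3) and a lower trio with no value between. Its CV of 32.5% was the 25th largest of all genes at 5 CPM or more.

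Neuropeptide genes ranged widely in level. By CPM, which is not a level per length, *Chgb*, a granin of dense-core vesicles, stood at a mean of 489, *Cck* at 331 and the activity-regulated *Vgf* at 263. Of 31 peptide genes, 15 were at 5 CPM or more, and 12 were below 1 CPM, among them *Avp*, *Oxt* and *Hcrt*, whose neurons lie in the hypothalamus. The summed CPM of the list ranged between 2021 and 2086, a CV of 1.28%. Of the stress hormone genes, the glucocorticoid receptor *Nr3c1* stood at 124 to 139 CPM, the mineralocorticoid receptor *Nr3c2* at 30.3 to 34.7 CPM and *Crhr1*, the receptor of corticotropin-releasing hormone, at 28.7 to 34.9 CPM.

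Gene families of other organs were at or near the floor. Of 1147 olfactory receptor genes, 1070 had no count in any mouse and none reached 5 CPM, the highest being *Olfr287* at a mean of 3.30 CPM. None of 39 Hox genes reached 1 CPM and 29 had no count. Of 349 vomeronasal receptor genes, 336 had no count, and of 75 genes of major urinary proteins and defensins 67 had none. The 13 protein genes of the mitochondrial genome were listed at 0 in every mouse, although they are among the most transcribed genes of brain, so no level in the tissue is read from this listing. *Xist* was not analysed here, since the table holds protein-coding genes.

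Lists of neighbouring regions were not absent. At 5 CPM or more were 14 of 21 striatal, 8 of 9 claustral and 8 of 12 thalamic genes, with mean sums of 934, 444 and 242 CPM, and many of these genes are also used in cortex. Of 14 blood genes, 2 were at 5 CPM or more, the globins *Hbb-bs* and *Hba-a1*. *Hbb-bs*, the adult beta globin of red cells, was at 36.9, 16.9, 36.0, 31.8 and 37.4 CPM, and the summed list at 59.9, 28.2, 60.4, 55.9 and 60.2 CPM. Mouse 2 was the lowest, and the other 4 lay close together. The meningeal fibroblast list summed to 112 to 157 CPM, lowest in mouse 2 and highest in mouse 5. The list of choroid plexus and ependyma had 2 of 17 genes at 5 CPM or more and a mean sum of 325 CPM. Nearly all of that sum was *Enpp2*, which oligodendrocytes also make, at a mean of 309 CPM, while *Ttr*, the main secreted protein of the choroid plexus, was at 0.281 to 0.776 CPM. Of 8 pituitary genes, 4 had no count and the highest, *Pomc*, had a mean of 0.746 CPM.

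Between the 5 mice, most genes differed little. Over the 11214 genes at 5 CPM or more, the median CV was 6.33%, with quartiles of 4.32% and 9.27% and a 95th percentile of 15.9%. The highest mouse was 1.17 times the lowest at the median gene, at least 1.5 times the lowest for 520 genes, and at least 2 times for 47 genes (0.419%), which are called wide here. A CV under 5%, called tight, was found for 3792 genes (33.8%). At the other end, 208 genes had a CV over 20% and 5 a CV over 50%.

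Part of this spread is counting error. The counting CV, which is what the number of reads alone would give, had a median of 2.67%, and without it the median CV was 5.56%. The CV fell with abundance, from a median of 11.9% in the decile of genes of lowest level (5.01 to 9.23 CPM) to 4.07% in the decile of highest level (191 CPM and above). Of the 47 wide genes, 20 were in that lowest decile and 1 in the highest. The 100 most abundant genes had a median CV of 4.28%, 63 of them were tight, and the widest ratio between mice among them was 1.44.

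**Figure D3:**
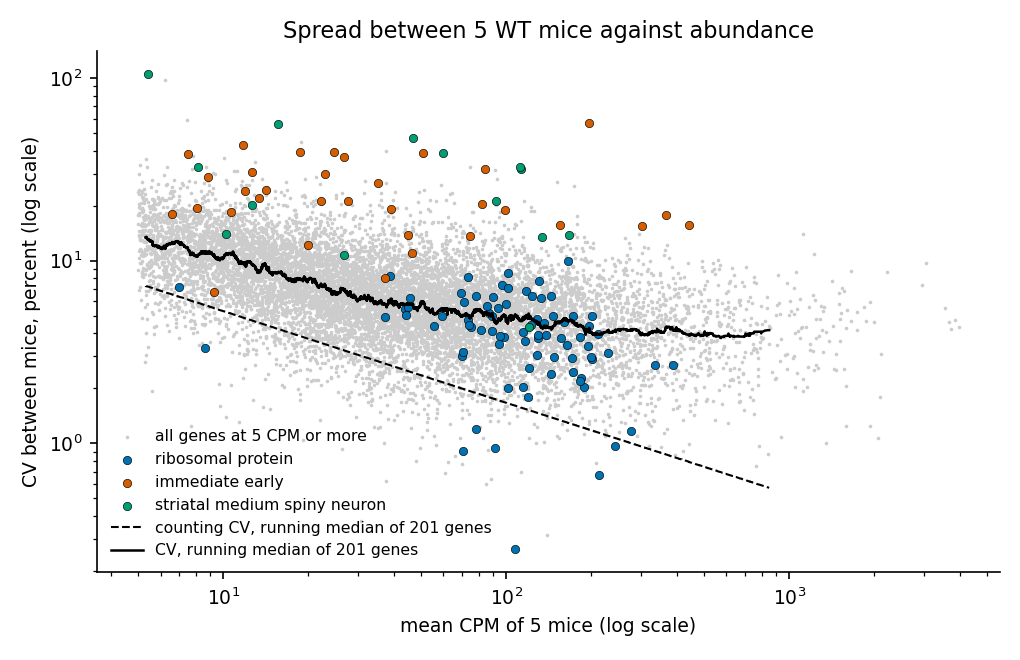
CV between the 5 mice against mean CPM for the 11214 genes at 5 CPM or more, both on log scales, with 3 lists in colour, the running median of the CV (solid) and of the counting CV (dashed). Above the running median lie 32 of the 33 immediate early genes, 13 of the 14 striatal genes and 26 of the 81 ribosomal protein genes.

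The most even gene was *Rps18*, a protein of the small ribosomal subunit, at chr17:33951999-33956001 on the minus strand (GRCm38). Its levels were 107.0, 107.4, 107.3, 107.6 and 107.7 CPM, a CV of 0.265% where counting alone would give 1.61%. *Ndufv1*, a core subunit of respiratory complex I, followed at 139, 140, 140, 140 and 140 CPM, a CV of 0.315%. Both lie below their counting CV, as did 22 of the 30 genes of smallest CV, and 570 of all genes (5.08%). With 5 mice a CV this small can fall below its counting part by sampling, and the order among these genes is therefore not resolved.

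The 30 most even genes were of mixed function, and of the 100 most even only 14 were in any list. The ribosome gave *Rps18*, *Rpl8*, *Rpl10a*, *Rpl32* and *Rps2*, and mitochondria gave *Ndufv1*, *Sdha*, *Atp5a1* and *Tomm20*, the last a receptor of the import channel of the outer membrane. Genes of membrane traffic were *Lman2*, *Napg*, *Cog7*, *Vps39*, *Yipf1* and *Yipf5*. Chromatin and transcription gave *Ino80*, *Kdm5c*, *Ezh1* and *Gtf2h5*. Neuronal genes were present as well, namely *Klc1*, the light chain of the kinesin motor, at 756 to 769 CPM, *Myo5a*, an actin motor of dendritic spines, at 774 to 793 CPM, *Add2*, a spectrin-binding adducin, at 416 to 424 CPM and *Ppp1r9a*, a spine scaffold, at 433 to 444 CPM. The remaining ones were *AC127333.1*, *Tmem50a*, *Zmym4*, *Clec16a*, *Tmem234*, *Bsg* and *Mpnd*. Just outside stood *Rtn3*, 31st with a CV of 1.01% against 0.993% for the 30th.

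Abundant functional lists had small CVs, as abundant genes do. Of 81 ribosomal protein genes at 5 CPM or more, 56 were tight, against 33.8% of all genes, with a median CV of 4.12%. Their median level was 116 CPM, and the decile of genes around that level had a median CV of 4.60%. Of 35 proteasome genes, 23 were tight, against the same 33.8%, with a median CV of 4.12% at a median level of 82.8 CPM, where the decile had 4.99%. Synaptic vesicle genes had a median CV of 4.44%, glycolytic genes 4.31% and pump genes 4.77%, none of them below the 4.07% of the highest decile, in which their median levels lie. Small shifts ran through whole lists all the same. Mouse 2, the deepest library, was the highest for 55 of the 81 ribosomal protein genes and 50 of the 78 respiratory chain genes, against 27.7% of all genes at 5 CPM or more, and the summed ribosomal list was 1.08 times higher there than in mouse 3. Mouse 1 was the lowest for 15 of the 23 heat shock and chaperone genes, against 22.6% of all genes. The part of depth in this was not tested.

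Genes commonly used as references in quantitative PCR were read against this background. All 36 were at 5 CPM or more, and 23 were tight, against 33.8% of all genes. Their median CV was 4.27% at a median level of 139 CPM, where the decile of all genes had 4.60%. *Sdha*, a subunit of succinate dehydrogenase, was the most even at 391, 398, 391, 396 and 393 CPM, a CV of 0.860%. *Gapdh* followed at 1574, 1584, 1558, 1611 and 1590 CPM, a CV of 1.25%. *Reep5*, *Cyc1*, *Rab7*, *Atp5b* and *Pgk1* had CVs between 1.61% and 1.94%, so that 7 of the 36 were under 2%. *Actb*, the cytoplasmic actin, had 3.14%, *Hprt* 5.10% and *Tbp* 5.41%. The least even was *B2m*, a subunit of MHC class I, at 76.5, 85.0, 63.8, 66.5 and 72.8 CPM, a CV of 11.5%. In all, 7 of the 36 exceeded the median of all genes, among them *Gusb* (9.30%), *Chmp2a* (7.35%), *Gpi1* (7.32%) and *Polr2a* (7.00%). The summed CPM of the 36 genes ran from 10345 to 10583.

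**Figure D4:**
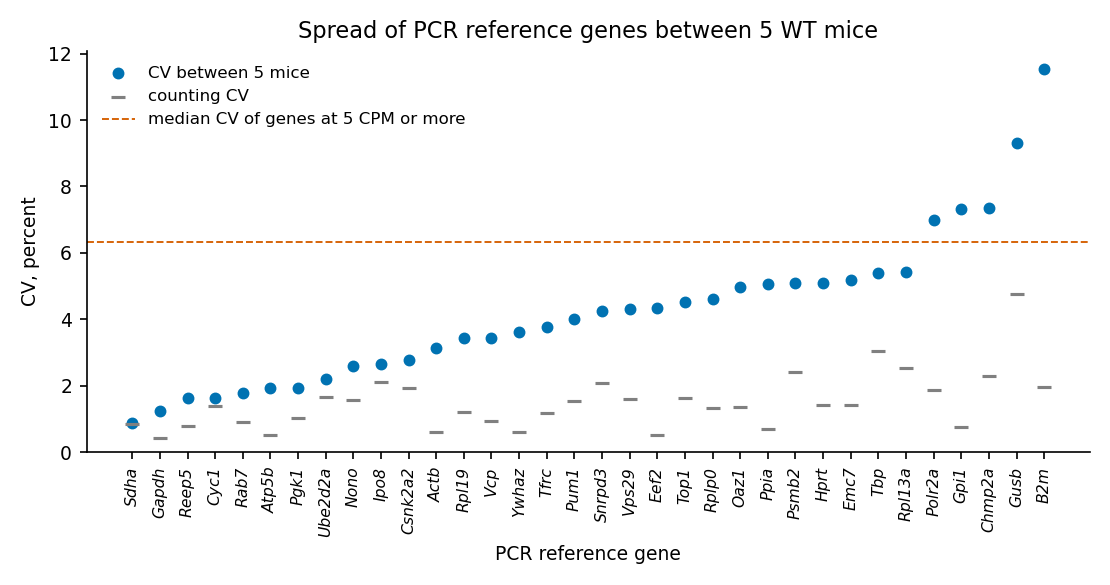
CV between the 5 mice of 34 of the PCR reference genes (points), their counting CV (short dashes) and the median CV of genes at 5 CPM or more (dashed line). Above the line of 6.33% lie 5 of these 34 genes, with *B2m* highest at 11.5%.

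At the other end, the 47 wide genes included members of 2 lists, which were chosen with earlier results of these data known. Immediate early genes held 11 of them, out of 33 at 5 CPM or more. Genes of striatal medium spiny neurons held 7, out of 14, against 0.419% of all genes. The other 29 were in neither list. Of the 7 striatal genes, *Syndig1l* reached the minimum of 5 CPM through mouse 5 alone. Without mouse 5, 0 striatal genes were wide, so these 7 rest on 1 animal. Among the 100 genes of largest CV, 35 were in at least 1 of the lists and 65 in none. Of these 100 genes, 36 were highest in mouse 5 and 34 lowest in mouse 3, where 20.02% and 22.6% of all genes had that mouse as their highest and lowest. The 30th largest CV was 31.6% (*Kcnab3*) and the next, just outside, 30.9% (*Csrnp1*, an early response gene in no list here).

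Immediate early genes encode activity-driven transcription factors such as *Fos*, *Junb*, *Egr1*, *Egr2*, *Npas4* and the Nr4a receptors, effectors of synapses such as *Arc*, and brakes such as the phosphatase *Dusp1* and the antiproliferative *Btg2*. To show what lies before the start sites of wide members in which a known element of activity-driven transcription was found, the 250 bases upstream of 3 of them are given, from RefSeq on GRCm38.p6. The sequences read 5′ to 3′ on the strand of the gene. Capitals mark the cAMP response element (CRE, the palindrome TGACGTCA) in *Btg2* and *Dusp1*, and the CArG box bound by serum response factor in *Egr2*. The *Btg2* window is chr1:134079156-134079405 (minus strand), that of *Dusp1* chr17:26508473-26508722 (minus strand) and that of *Egr2* chr10:67537620-67537869 (plus strand).
Btg2: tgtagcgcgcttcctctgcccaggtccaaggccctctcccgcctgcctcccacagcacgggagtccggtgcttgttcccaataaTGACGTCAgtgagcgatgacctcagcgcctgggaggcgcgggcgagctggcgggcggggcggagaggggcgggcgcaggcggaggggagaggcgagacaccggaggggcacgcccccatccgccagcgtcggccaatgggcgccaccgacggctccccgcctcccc
Dusp1: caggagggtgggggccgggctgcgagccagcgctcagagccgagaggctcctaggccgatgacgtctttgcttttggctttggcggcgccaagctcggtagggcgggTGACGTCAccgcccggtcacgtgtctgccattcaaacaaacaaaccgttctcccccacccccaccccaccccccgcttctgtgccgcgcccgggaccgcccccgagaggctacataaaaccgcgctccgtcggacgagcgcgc
Egr2: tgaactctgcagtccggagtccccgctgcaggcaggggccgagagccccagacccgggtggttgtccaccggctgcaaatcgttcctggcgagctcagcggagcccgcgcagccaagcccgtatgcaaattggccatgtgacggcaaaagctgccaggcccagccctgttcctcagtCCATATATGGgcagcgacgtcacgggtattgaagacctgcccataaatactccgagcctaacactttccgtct

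The first base of the motif lies 166 bases before the start site in *Btg2*, 143 in *Dusp1* and 73 in this start site of *Egr2*. A window was found for 25 of the 33 immediate early genes at 5 CPM or more. The CRE was in 2 of the 25 (8%), beside 3.32% of 8566 genes at 5 CPM or more and 1.77% of all 27025 genes with a window. The CArG box, searched like the CRE on both strands, was in 2 of the 25, *Egr2* and *Dusp5*, beside 1.40% and 1.62%. A match is a run of letters and not a bound site, and nothing follows from its absence in the other 21.

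*Arc*, whose protein acts at active synapses, had the largest CV of the list, 57.1%. Its levels were 198, 265, 72.5, 342 and 102 CPM in mice 1 to 5, a mean of 196 CPM ± 112 (SD, n = 5). Mouse 4 was thus 4.72 times mouse 3, and 3 mice lay well above the other 2. *Fos*, the founding member of the AP-1 factors, was at 31.1, 24.1, 18.9, 36.8 and 12.1 CPM, highest in mouse 4 and lowest in mouse 5. *Junb*, its partner, was at 52.9, 54.2, 31.9, 80.5 and 33.7 CPM, which repeats the order of *Arc* with mice 3 and 5 at the bottom.

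*Egr2*, a zinc-finger factor, was at 9.17, 7.92, 6.799, 10.5 and 2.96 CPM, and mouse 4 had 3.56 times the level of mouse 5. *Npas4*, a factor induced by neuronal calcium, was at 16.3, 15.7, 12.3, 31.3 and 17.8 CPM. *Dusp1* was at 24.8, 30.6, 17.3, 41.5 and 19.0 CPM, and *Btg2* at 8.54, 11.3, 8.40, 20.5 and 9.79 CPM. In all 3 genes mouse 4 was highest and mouse 3 lowest. The orphan receptor gene *Nr4a1* was at 86.6, 82.3, 71.2, 127 and 54.6 CPM, with mouse 4 again at the top and mouse 5 at the bottom.

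Over the 11 wide immediate early genes, mouse 4 was the highest for 9 and mouse 3 or 5 the lowest for all, 6 in mouse 3 and 5 in mouse 5. Over the 33 genes of the list at 5 CPM or more, mouse 4 was the highest for 15, mouse 5 the lowest for 20 and mouse 3 the lowest for 11. Over all genes at 5 CPM or more, mouse 4 was the highest for 13.6%, mouse 5 the lowest for 15.8% and mouse 3 the lowest for 22.6%. The exceptions at the top were *Nr4a2*, highest in mouse 2, and *Nr4a3*, highest in mouse 1. All 33 genes at 5 CPM or more had a median CV of 21.2%, against 6.33% over all genes, and none was tight. Their sums were 2398, 2566, 2252, 2731 and 1751 CPM. The 3 most abundant members moved less, *Egr1* being at 261 to 424 CPM, *Egr3* at 240 to 348 CPM and *Homer1* at 357 to 517 CPM, and all of these were lowest in mouse 5. *Gadd45g*, a growth arrest gene chosen here after its values were seen, was the most even with a CV of 6.72%. Mice 3 and 4, which stand at opposite ends for *Arc*, share a RIN of 8.2, and whether RIN had a part here was not tested. Without mouse 4 there were 5 wide immediate early genes, without mouse 5 there were 6, and without both mice of RIN 8.2 there were 5, while the median CV of the list stayed between 16.5% and 23.7% when each mouse was left out.

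Striatal medium spiny neurons are the GABAergic projection cells of the striatum, which lies beneath the frontal cortex. *Syndig1l*, which belongs to the family of a synapse regulator, had the largest CV of all genes at 5 CPM or more, 105%. Located at chr12:84677277-84698831 on the minus strand (GRCm38), it was at 2.15, 3.36, 2.67, 3.44 and 15.6 CPM. Mouse 5 thus stood far above the other 4, and 7.24 times above mouse 1. The mean of *Syndig1l*, 5.44 CPM, reached the minimum of 5 CPM through mouse 5 alone, the other 4 mice being below it. *Rgs9*, a brake on dopamine receptor signalling, was at 10.8, 12.6, 12.5, 10.7 and 31.2 CPM. *Penk*, the precursor of the enkephalins, was at 39.9, 35.8, 37.6, 35.4 and 86.4 CPM. In both genes mouse 5 stood apart from a close group of 4.

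*Ppp1r1b*, which encodes the dopamine-regulated DARPP-32, was at 116, 108, 83.2, 84.7 and 171 CPM. *Pde10a*, a phosphodiesterase, was at 72.4, 95.1, 111, 111 and 171 CPM, and *Rarb*, a retinoic acid receptor, at 6.88, 7.41, 5.11, 9.09 and 12.1 CPM. Mouse 5 was the highest for all 7 wide genes, for 13 of the 14 genes at 5 CPM or more, and for all 7 members under 5 CPM. The exception was *Foxp1*, a factor of upper-layer neurons as well, at 116 to 127 CPM and highest in mouse 2.

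Receptors that define these neurons were low in 4 mice and higher in the fifth. *Drd2*, the dopamine D2 receptor, was at 1.89, 1.44, 0.702, 1.05 and 9.36 CPM, and *Adora2a*, the adenosine A2a receptor, at 2.58, 2.53, 2.75, 1.61 and 12.95 CPM. The summed list of 21 genes was 853, 851, 842, 830 and 1295 CPM. The sum in mouse 5 was 1.53 times the mean of the other 4, which differed by 1.03 times at most. Without mouse 5, none of the list was wide and the median CV of the 14 genes went from 26.5% to 9.30%, where that of all genes was 6.28%. Mouse 5 had 34822087 counts and a RIN of 9.5, and whether either had a part was not tested. The list of olfactory bulb and anterior olfactory nucleus was also highest there, at 160 CPM against 131 to 135 CPM, and so was the hippocampal list at 272 CPM against 225 to 254 CPM, while the thalamic and claustral lists were not.

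**Figure D5:**
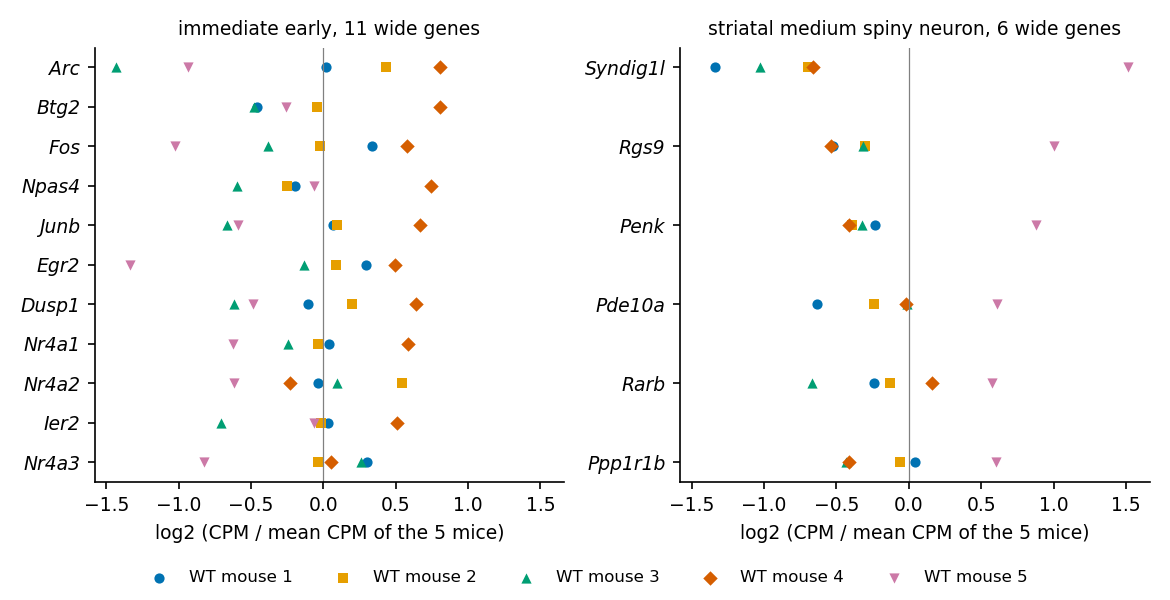
CPM of the 11 wide immediate early genes and 6 of the 7 wide striatal genes in each WT mouse, as log2 of the ratio to the mean of the 5 mice, with 1 marker per mouse. Mouse 4 is furthest to the right for 9 of the 11 genes on the left panel, and mouse 5 for all 6 genes on the right panel.

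Other genes of large CV were not in these lists but shared their mice. *Lrrc10b*, a leucine-rich repeat gene, had the second largest CV, 97.1%, at 4.004, 4.54, 2.98, 2.69 and 17.0 CPM, and was highest in mouse 5 like the striatal genes. Its mean, too, reached the minimum of 5 CPM through mouse 5 alone. A gene listed as *Drd*, of which the table gives no fuller name, was highest there too, at 20.6 CPM against 9.30 to 12.6 CPM, as was *Abi3bp*, an extracellular matrix gene, at 13.0 CPM against 5.89 to 7.403 CPM. *Plin4*, which coats lipid droplets and responds to glucocorticoids, was at 4.10, 7.37, 3.46, 7.82 and 14.4 CPM. *Hmgb2*, a chromatin protein, reached 7.64 CPM in mouse 5 and 3.11 CPM in mouse 1.

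Some genes had patterns of their own. *Wdfy1*, an endosomal adaptor, was at 38.2, 17.1, 59.3, 37.3 and 35.7 CPM, with mouse 3 at 3.47 times mouse 2 and the other 3 together between them. *Tmem267*, a membrane protein, was at 11.7, 17.0, 12.2, 32.2 and 21.1 CPM. *Sox18*, a factor of blood vessel endothelium, was at 9.46, 5.01, 5.14, 4.66 and 7.44 CPM, and *Acer2*, a ceramidase, at 12.01, 7.03, 7.02, 5.46 and 7.35 CPM, both highest in mouse 1. *Zfp366* was highest in mouse 1 as well, at 13.2 CPM against 6.09 to 9.02 CPM, and *Cdc42bpg* was highest in mouse 2, at 7.01 CPM against 3.18 CPM in mouse 1.

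Hormone and clock genes, which depend on the time and state in which an animal is sampled, differed in their spread. Of 23 glucocorticoid-induced genes, 19 were at 5 CPM or more, with a median CV of 19.6% and 1 wide gene, *Plin4*. That median is near the 21.2% of the immediate early genes. The sums were 1176, 1298, 971, 981 and 1232 CPM, so mice 3 and 4 stood below the other 3. *Sgk1*, a kinase induced by glucocorticoids, was at 95.003, 128, 68.2, 67.2 and 106 CPM, and *Tsc22d3*, which encodes GILZ, at 127, 152, 95.7, 101 and 137 CPM. All 19 clock genes were at 5 CPM or more, with a median CV of 7.74%, against 6.33% over all genes at 5 CPM or more. *Per1*, a clock gene that is also an early response gene, was at 131, 94.1, 98.9, 91.0 and 81.4 CPM, and *Tef*, an output gene of the clock, was among the even genes with 446 to 472 CPM.

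Mice 3 and 4, the pair with a RIN of 8.2, stood apart from the other 3 at a further set of genes. Genes were called two-level where the 5 mice fell into groups of 2 and 3 on the scale of log2(CPM + 1). The gap between the groups had to be at least 0.35 and wider than the range within either group. This rule was chosen after the data were seen. Only 47 of the 11214 genes at 5 CPM or more were two-level. Of these 47, 26 set mice 3 and 4 apart from mice 1, 2 and 5, and 21 split the mice in another way. Higher in mice 1, 2 and 5 were 17 genes. *Kcnab3*, a potassium channel subunit, was at 109, 128, 58.3, 66.8 and 95.5 CPM, and *Tspan11*, a tetraspanin, at 13.6, 12.7, 5.11, 7.29 and 11.7 CPM. *Ky*, at 6.72, 6.27, 3.12, 3.85 and 6.89 CPM, and *Sgk1* were others of the 17.

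Higher in mice 3 and 4 were 9 genes, none of which had a gap of 0.5. *Otof*, an upper-layer marker, was at 14.4, 13.5, 22.6, 19.4 and 13.8 CPM. The upper-layer list as a whole did not follow it, with sums of 1296, 1293, 1151, 1208 and 1190 CPM, lowest in mouse 3. *Hspb1*, a small heat shock protein, was at 5.13, 5.37, 7.59, 7.24 and 5.23 CPM. *Kdr*, a receptor of the vascular growth factor VEGF, was at 10.2, 8.13, 14.2, 13.8 and 9.19 CPM. In each of these genes the 2 groups of mice did not overlap, which the rule itself requires. Mice 3 and 4 were also the closest pair over the genes at 5 CPM or more. Their root mean square difference in log2(CPM + 1) was 0.137, against 0.159 to 0.187 for the other pairs. Whether RIN, another feature shared by these 2 libraries, or the animals themselves had a part was not tested.

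Two-level genes that divide the mice otherwise include some of high level. *Ndn*, an imprinted gene of neurons, was at 108, 161, 109, 194 and 184 CPM, and *Snx32*, a sorting nexin, at 36.0, 58.3, 39.1, 59.5 and 62.7 CPM. Both set mice 1 and 3 below mice 2, 4 and 5, and both were chosen after their values were seen. *Gabra2* was the only one of the 47 to set mice 2 and 3 above the rest.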

How the data were processed

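The deposited values are read counts per gene. Per the paper's methods and the labels, the authors extracted total RNA from the PFC, made stranded mRNA libraries, sequenced 101 bp read pairs, aligned them to mm10 with STAR (2.7.1a), and used HTSeq (0.9.1) to count uniquely mapped reads on Gencode M21 exons, protein-coding genes only. The counts were not normalized, and whether the counting used strand is not given in the sources used here, so antisense pairs may share reads.

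The 5 WT columns were scaled to CPM by the sum of all genes. Exon lengths and positions were taken from Gencode M21, in which 19767 genes were found (19524 by symbol and 243 by a synonym), 10928 of the 11214 genes at 5 CPM or more. The CV, the ratio of the highest to the lowest mouse and the counting CV (from the mean of 1/count) were computed for genes with a mean of 5 CPM or more. No groups were compared and no p-value was computed. Dixon's gap ratio was used to pick out values with 1 mouse far from the others. Scale factors and dispersions for the alternatives came from edgeR (4.0.16) and DESeq2 (1.42.0) in R 4.3.3, and the rest from Python 3.11.15. The scripts were tested on simulated counts.

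Members, thresholds and gene lists were chosen with earlier results of these data known. Named genes are the 30 of highest mean CPM, the 30 of largest and of smallest CV, the 3 of highest level and of largest CV in each list, all PCR reference genes, Y-linked genes and *Zbtb16*. *Adora2a*, *Avp*, *Cox8a*, *Csrnp1*, *Drd2*, *Dusp5*, *Gadd45g*, *Hcrt*, *Ndn*, *Nr4a3*, *Oxt*, *Rplp1*, *Rtn3*, *Sepw1*, *Snx32* and *Ttr* fall outside this rule and were chosen after their values were seen. Some genes that the rule names are not reported here. Alternatives covered the scaling, the CPM minimum, the measure of spread, levels per kb, the gap of the two-level rule and leaving out each mouse. Depth limits the precision of low genes, and counting CVs cover counting error only. Beyond the traits named at the opening and the RIN, nothing in the labels says more of the mice than that they are separate samples.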

Additional observations from a re-analysis of the deposited data

Results flagged for a closer look

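Of 174 values examined (genes named and list sums), 20 had 1 mouse far from the other 4, with a gap to the nearest mouse of more than 0.71 of the whole range. Chance flags about 1 in 20 such groups, and 5.80% of all genes at 5 CPM or more passed the same limit. The values examined include genes picked for their large CV in these same mice, so their share of flags cannot be compared with these rates. Mouse 5 was the mouse apart for *Penk* (0.911 of the range), *Rgs9* (0.907), *Syndig1l* (0.904), *Lrrc10b* (0.871) and *Abi3bp* (0.787), and for the summed striatal list (0.952) and olfactory bulb list (0.835). Mouse 4 was the mouse apart, on the high side, for *Btg2* (0.757) and *Npas4* (0.71005). Mouse 1 was apart on the high side for *Acer2* (0.712) and for the summed pituitary list (0.821), with *Gh* at 0.960 CPM in mouse 1 and at 0 in the others.

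Mouse 2 was the mouse apart for the summed blood list (0.859, low), for the oligodendrocyte precursor list (0.745, low), the neuropeptide list (0.767, low) and the GABA-A receptor list (0.767, high). Genes with a small CV were also flagged, since the limit is relative to the range. These were *Oaz1* (0.861), *Csnk2a2* (0.831), *Ppp1r9a* (0.713), *Zmym4* (0.752) and *Calm2* (0.729), whose highest mouse was at most 1.13 times the lowest.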

How the results depend on the processing

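No paired analysis was possible because no comparison between groups was made. The number of genes at 5 CPM or more, the share of counts in the 100 most abundant genes and the count of tight genes (3743 to 4734) stayed within 1.5 times of the main value under each alternative tried. With a minimum of 1 CPM the median CV was 7.10%, 495 genes were wide and 8 of the 100 genes of largest CV stayed among them. With a minimum of 10 CPM, 26 genes were wide and 54 of the 100 stayed. With 5 CPM required in every mouse, 33 genes were wide and 72 of the 100 stayed. The edgeR common dispersion gave a biological CV of 7.31%. Ranked against genes of like abundance, 40 of the 100 of largest CV stayed.

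Of the 100 genes of smallest CV, 63 stayed with DESeq2 size factors, 33 by edgeR tagwise dispersion and 4 after taking off the counting part, and of the 100 most abundant genes 60 stayed per kb. Leaving out 1 mouse at a time, the median CV lay between 5.69% (without mouse 2) and 6.44%, wide genes between 24 (without mouse 5) and 37, the shared genes of largest CV between 62 (without mouse 5) and 79, and those of smallest CV between 31 (without mouse 2) and 54. Of the 47 wide genes 26 stayed wide without mouse 5. Without the 2 mice of RIN 8.2, 22 genes were wide, and fewer mice give smaller ratios by construction.

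Wide immediate early genes numbered 5 to 11 and wide striatal genes 0 to 8 when a mouse was left out, and 5 immediate early genes were wide without the 2 mice of RIN 8.2. With 5 CPM required in every mouse, 10 immediate early and 6 striatal genes were wide. With a gap of 0.25 there were 215 two-level genes, 76 of them setting mice 3 and 4 apart, and with 0.5 there were 13 and 6, all 6 of them higher in mice 1, 2 and 5 and 0 higher in mice 3 and 4. Of 306 named genes, the CV moved by over 1.5 times for 9 with TMM scaling and for 13 to 58 without 1 mouse. The causes were not tested.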

Other observations

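Some gene families outside the lists above had part of their members at 5 CPM or more. Of 111 keratin genes, 3 were at 5 CPM or more, namely *Krt222* at 59.4 to 72.4 CPM, *Krt12* at 11.7 to 16.4 CPM and *Krt80* at 8.03 to 13.2 CPM, and 82 had no count. Of 56 clustered protocadherin genes, which give neurons their surface identity, 34 were at 5 CPM or more, led by *Pcdhgc5* at 115 to 129 CPM, and their sum had a CV of 1.96%. Of 67 replication-dependent histone genes, 5 were at 5 CPM or more, the highest being *Hist1h2bc* at a mean of 16.9 CPM, and their messages mostly lack poly(A) tails. Of 27 interferon-stimulated genes, 9 were at 5 CPM or more, with a median CV of 10.3%.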
